A study of Mus musculus with 22 samples.

Results

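The genes described here are 10 genes of glucose uptake and glycolysis, taken by symbol from the count tables of embryonic mouse heart ventricles, out of 48709 genes counted. They are the glucose transporters Slc2a1 (GLUT1) and Slc2a4 (GLUT4), the hexokinases Hk1 and Hk2, the muscle phosphofructokinase Pfkm, the aldolase Aldoa, the muscle phosphoglycerate mutase Pgam2, the pyruvate kinase Pkm, and the lactate dehydrogenase subunits Ldha and Ldhb. All 10 were in both tables and passed the filter on low counts in both experiments.

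RNA was sequenced from ventricles of E13.5 mouse embryos on the C57/Bl6 background, in which Nkx2.5-Cre was used to delete Lin9, a subunit of the cell cycle regulator MuvB, and Sav1, a scaffold protein of the Hippo pathway. Experiment 1 compared LIN9 wt with LIN9 KO ventricles, both with wild-type Sav1. Experiment 2 compared the 4 combinations of LIN9 wt or KO with Sav1 wt or KO, called control, LIN9 KO, Sav1 KO and double knockout. Each genotype had 3 libraries, 18 in all, and every group carried Nkx2.5-Cre. The labels call the LIN9 wt animals wild-type, whereas the study describes them as Lin9 fl/+ animals with 1 intact allele, and knockouts as Lin9 fl/fl and Sav1 fl/fl. Nkx2.5-Cre acts in cardiac precursor cells, so that whole ventricles also held cells in which it was not active. The study's description treats the 2 experiments as biological replicates of the LIN9 comparison, with each measured in triplicate, and no source used here says that the 3 libraries of a group came from separate embryos. The p-values therefore measure only the spread between these libraries, which may be technical.

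The deleted genes were measured in CPM, the reads of a gene scaled to the same library size. Lin9 was at 29.3, 28.1 and 23.2 CPM in controls and at 13.1, 15.4 and 17.9 CPM in LIN9 KO libraries of experiment 2 (log2 fold change -0.80 ± 0.192, adjusted p = 0.0027). It was at 19.2, 31.4 and 25.6 CPM in Sav1 KO and 23.5, 26.1 and 18.5 CPM in double knockout libraries (-0.16, adjusted p = 0.586). In experiment 1 Lin9 was at 29.8, 21.4 and 25.6 CPM in LIN9 wt and 21.4, 21.3 and 19.2 CPM in LIN9 KO libraries (-0.31, adjusted p = 0.13). Sav1 was at 54.5, 56.2 and 61.9 CPM in controls and 43.1, 36.1 and 43.0 CPM in Sav1 KO libraries (-0.50 ± 0.121, adjusted p = 0.318). It was at 51.9, 49.9 and 47.3 CPM in LIN9 KO and 44.0, 40.5 and 42.3 CPM in double knockout libraries (-0.23 ± 0.123, adjusted p = 0.464). The groups did not overlap in either pair, and neither difference passed the test. Against controls, Sav1 in double knockouts did pass as lower in the same test (-0.44, adjusted p = 0.00873). Of the exonic bases of Sav1, 25.4% lie under Atl1 on the opposite strand. Counts of a whole gene include exons that the deletion leaves and reads from cells without Cre, so that these levels check the labels only in part. The Lin9 level alone did not separate double knockouts from Sav1 KO libraries or from controls (-0.24 in the same test, adjusted p = 0.385). Every double knockout library lay above every LIN9 KO library in Lin9, a difference that did not pass (0.56, adjusted p = 0.238).

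Glucose enters heart cells through GLUT1, which is present in most cell types and dominates in the fetal heart, and through GLUT4, which moves to the membrane on insulin and takes over in the adult heart. Hexokinase traps it as glucose 6-phosphate, phosphofructokinase commits it to glycolysis, and aldolase, phosphoglycerate mutase and pyruvate kinase act in the steps that follow. Lactate dehydrogenase interconverts pyruvate and lactate, with LDHA subunits typical of glycolytic tissues and LDHB subunits of the oxidative heart. Slc2a1, Hk2, Aldoa, Pkm and Ldha are known targets of the hypoxia-inducible factors, which bind sequences with the core ACGTG.

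The promoters of Slc2a1, Hk2, Pgam2 and Ldhb, the members that passed the test after loss of LIN9 with wild-type Sav1 in experiment 2, and that of Ldha for contrast, are shown first. They are the sequences in front of genes whose changes are described next. Each is 300 bases long, from 250 bases before to 50 bases after the annotated start, read 5′ to 3′ on the gene's strand from RefSeq on GRCm38.p6. Capitals mark every match to ACGTG or, on the other strand, CACGT. Of the 10 genes, 9 matched the table, with 17 promoters in all, and Slc2a4 did not.
Slc2a1 (chr4:119108495-119108794, plus strand): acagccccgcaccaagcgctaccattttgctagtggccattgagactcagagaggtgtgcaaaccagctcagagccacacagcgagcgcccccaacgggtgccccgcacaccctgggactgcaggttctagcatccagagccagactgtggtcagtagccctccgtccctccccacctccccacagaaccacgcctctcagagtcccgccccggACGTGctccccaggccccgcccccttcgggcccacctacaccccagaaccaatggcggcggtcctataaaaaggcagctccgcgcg
Hk2 (chr6:82774405-82774704, minus strand): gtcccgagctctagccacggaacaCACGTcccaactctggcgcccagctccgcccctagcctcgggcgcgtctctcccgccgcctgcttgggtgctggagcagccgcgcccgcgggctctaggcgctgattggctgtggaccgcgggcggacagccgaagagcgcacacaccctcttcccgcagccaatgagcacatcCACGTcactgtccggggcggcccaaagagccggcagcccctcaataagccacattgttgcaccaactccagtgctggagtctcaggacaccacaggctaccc
Ldha (chr7:46845554-46845853, plus strand): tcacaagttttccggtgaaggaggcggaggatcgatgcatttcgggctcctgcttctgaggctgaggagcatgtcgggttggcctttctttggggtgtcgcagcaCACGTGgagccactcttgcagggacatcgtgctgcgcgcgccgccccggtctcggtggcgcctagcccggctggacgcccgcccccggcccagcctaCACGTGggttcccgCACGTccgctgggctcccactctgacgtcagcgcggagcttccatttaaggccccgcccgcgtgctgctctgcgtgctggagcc
Pgam2 (chr11:5803747-5804046, minus strand): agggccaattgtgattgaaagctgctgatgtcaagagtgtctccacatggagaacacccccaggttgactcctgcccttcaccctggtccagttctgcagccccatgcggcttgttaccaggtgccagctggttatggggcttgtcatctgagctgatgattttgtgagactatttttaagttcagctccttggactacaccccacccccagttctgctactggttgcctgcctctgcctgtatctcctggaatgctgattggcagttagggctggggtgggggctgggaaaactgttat
Ldhb (chr6:142507908-142508207, minus strand): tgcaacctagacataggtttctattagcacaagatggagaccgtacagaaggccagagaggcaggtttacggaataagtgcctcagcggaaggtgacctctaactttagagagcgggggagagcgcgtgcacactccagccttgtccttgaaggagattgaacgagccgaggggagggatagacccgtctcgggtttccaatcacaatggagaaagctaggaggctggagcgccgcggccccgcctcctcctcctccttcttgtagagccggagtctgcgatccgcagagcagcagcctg

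Slc2a1, Hk2, Pgam2 and Ldhb each had 1 promoter in the table, which held 1, 2, 0 and 0 matches. The shown promoter of Ldha, the first of its 2 in the table, held 5 matches over both strands in 3 stretches of capitals. Of these stretches, 2 are CACGTG, the E-box, which matches on both strands and so counts as 2 matches. The second promoter of Ldha held 0. Among the other members, matches to ACGTG stood in 2 of the 4 promoters of Pfkm, in 2 of 3 of Aldoa, in 1 of 2 of Hk1 and in 1 of 2 of Pkm. TTTGAA, the cell cycle genes homology region bound by MuvB complexes, stood in 2 of the 17 promoters, both of Pfkm. AGGTCA, the core site of nuclear receptors such as those encoded by Esrra and Esrrg, stood in 5 of the 17, which were those of Ldhb, 2 overlapping ones of Aldoa, and 1 each of Pfkm and Pkm. Of all 32851 mouse promoters of this length, 19.6% held at least 1 match to ACGTG, 7.15% held CACGTG, 17.9% held TTTGAA and 16.3% held AGGTCA, each searched on both strands. A match describes these letters and is not a measured binding site.

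After loss of LIN9, some members rose and others fell in experiment 2, and those that passed in experiment 1 fell. In experiment 2 with wild-type Sav1, Slc2a1 and Hk2 rose and Pgam2 and Ldhb fell, which made 4 of the 10 members past the threshold of an adjusted p of 0.05 in edgeR's quasi-likelihood test, where 23.2% of all 17675 genes tested passed it. Of these, 2 of 10 members were higher and 2 of 10 lower, against 12.8% and 10.5% of all genes. In experiment 1, 3 of 10 members passed the threshold, all lower (Pfkm, Pgam2 and Ldhb), where 20.9% of all 19752 genes tested passed it, 11.1% higher and 9.78% lower. With Sav1 deleted, 6 of 10 passed, with Slc2a1 and Hk2 higher and Pfkm, Aldoa, Pgam2 and Ldhb lower, against 23.4% of all genes, with 11.8% of all genes higher and 11.6% lower. The median log2 fold change of the 10 members was -0.18 in experiment 1, 0.02 with wild-type Sav1 and -0.35 with Sav1 deleted, beside medians over all genes of 0.02, 0.01 and 0.03. In whole ventricles, fewer cells of a type and less RNA per cell cannot be told apart.

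**Figure D1:**
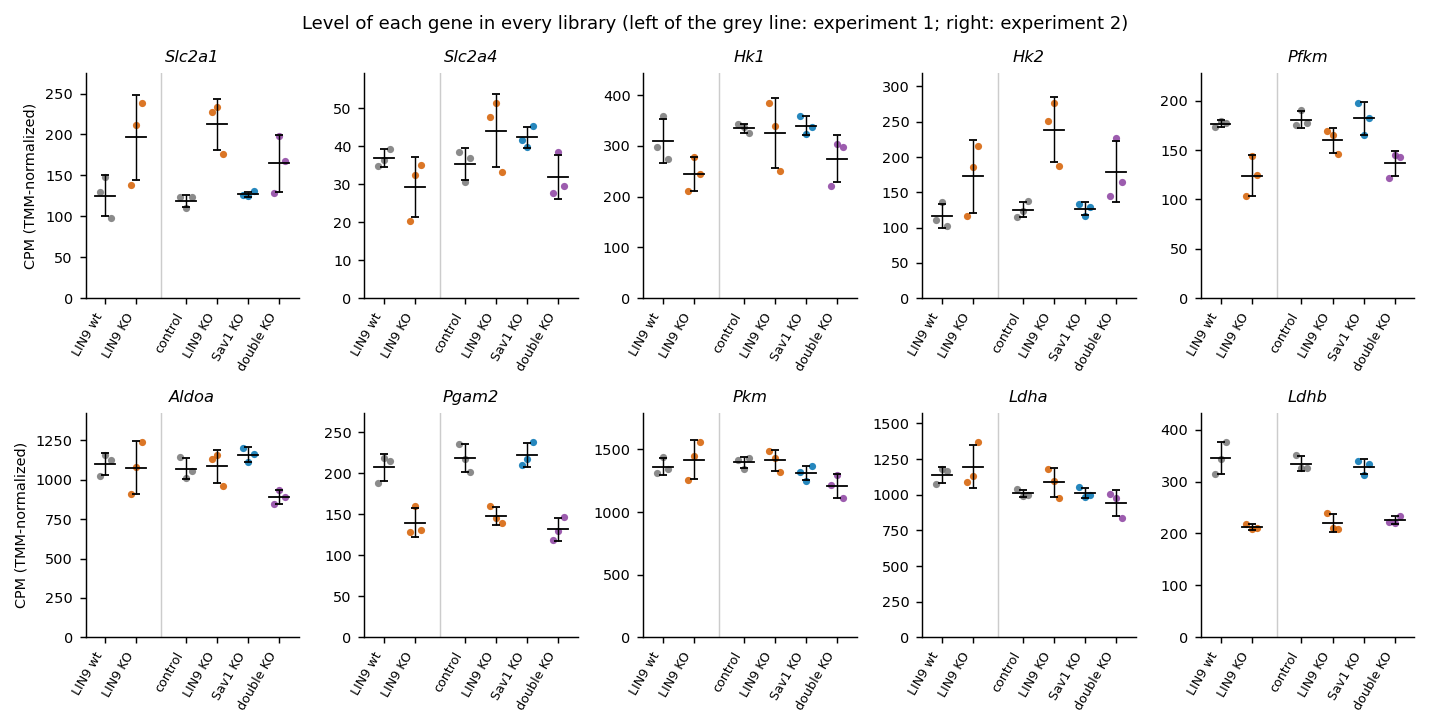
Level of each of the 10 genes in every library, in CPM (reads of a gene scaled to the same TMM-normalized library size), by genotype. Points are libraries and bars are the mean and the SD (n = 3). The means of Slc2a1 and Hk2 are highest in LIN9 KO ventricles within each experiment, while single libraries overlap with other groups. Pgam2 and Ldhb are lower in every group that lacks LIN9, and Pkm and Ldha overlap between the controls and LIN9 KO ventricles.

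**Figure D2:**
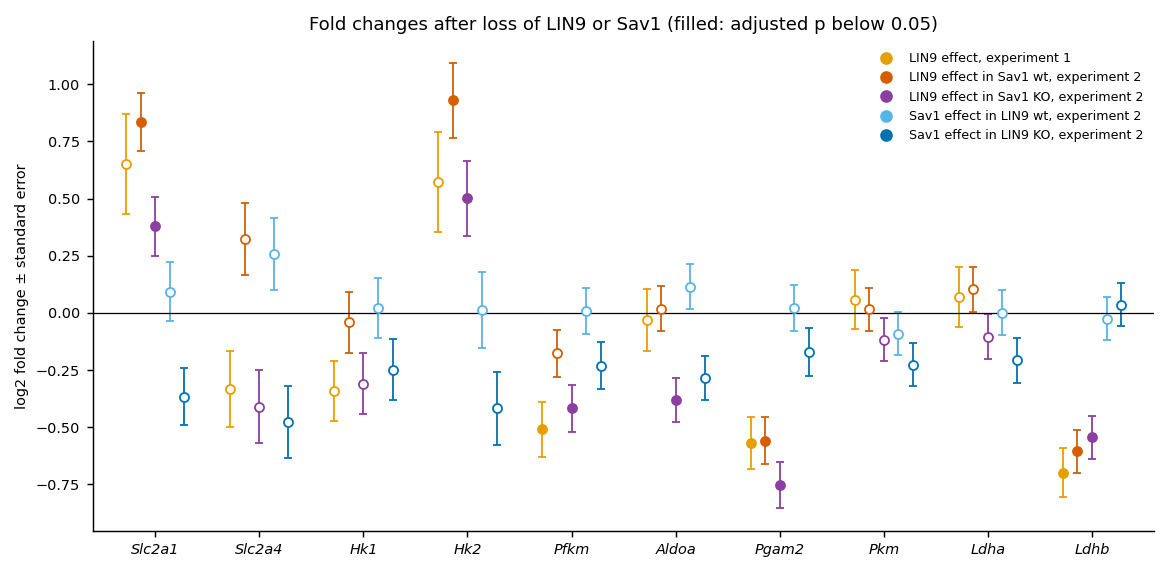
Log2 fold change of each gene with its standard error in 5 comparisons, from edgeR's quasi-likelihood fit of 6 libraries (experiment 1) or 12 libraries (experiment 2). Filled points passed an adjusted p of 0.05 over all genes tested, and only points of the LIN9 comparisons are filled.

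Slc2a1 encodes GLUT1, the main carrier of glucose into fetal heart cells. Its level was 123.0, 110.3 and 123.5 CPM in the 3 control libraries of experiment 2 and 227, 233 and 176 CPM in the 3 LIN9 KO libraries. In Sav1 KO libraries it was 126, 124 and 130.3 CPM against 129, 198 and 168 CPM in double knockouts. Every LIN9 KO library lay above every control, while 1 double knockout library lay within the range of the Sav1 KO libraries. The log2 fold change was 0.84 ± 0.128 (SE, adjusted p = 3.08e-05) with wild-type Sav1 and 0.38 ± 0.128 (adjusted p = 0.0341) with Sav1 deleted. The second call was lost in DESeq2 (adjusted p = 0.0688) and in a non-robust fit (adjusted p = 0.0578). It was also lost when any Sav1 KO library (adjusted p = 0.0742 to 0.0925), double knockout replicate 2 (log2 fold change 0.20, adjusted p = 0.324) or replicate 3 (adjusted p = 0.102) was left out. In experiment 1, Slc2a1 was at 129.6, 148 and 98.2 CPM in LIN9 wt libraries and at 138, 212 and 239 CPM in LIN9 KO libraries. These groups overlapped through LIN9 KO replicate 1, and the log2 fold change of 0.65 ± 0.218 did not pass the threshold (adjusted p = 0.0712). Without that library it was 0.85 (adjusted p = 0.00217), without LIN9 wt replicate 2 it was 0.79 (adjusted p = 0.041), and it also passed in DESeq2 (adjusted p = 0.00454). It was 0.49 without LIN9 KO replicate 3, and over all settings its adjusted p reached 0.266.

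Slc2a4, which encodes the insulin-responsive transporter GLUT4, was the lowest of the 10 genes per kilobase in every group. Its level was 38.6, 30.5 and 37.0 CPM in controls and 47.7, 51.5 and 33.2 CPM in LIN9 KO libraries. It was 41.7, 39.8 and 45.4 CPM in Sav1 KO and 27.6, 38.4 and 29.5 CPM in double knockout libraries. All double knockout libraries lay below all Sav1 KO libraries, and the other LIN9 comparisons overlapped. The log2 fold change after loss of LIN9 was 0.32 ± 0.157 with wild-type Sav1 and -0.41 ± 0.16 with Sav1 deleted, neither past the threshold (adjusted p = 0.144 and 0.0621). The first passed without LIN9 KO replicate 3 (0.46, adjusted p = 0.0311), but was 0.16 without LIN9 KO replicate 2 (adjusted p = 0.586). The second passed without double knockout replicate 2 (-0.59, adjusted p = 0.0202) or any LIN9 KO library, which shared the fit (adjusted p = 0.0254 to 0.0455). It also passed with no filter on low counts (adjusted p = 0.0307) and in a fit of the 6 libraries compared (adjusted p = 0.0253). In experiment 1 the levels were 34.9, 36.4 and 39.4 CPM in LIN9 wt and 20.4, 32.5 and 35.0 CPM in LIN9 KO libraries, with a log2 fold change of -0.33 ± 0.166 (adjusted p = 0.195) that passed without LIN9 KO replicate 3 (-0.48, adjusted p = 0.0421). It was -0.12 without LIN9 KO replicate 1 (adjusted p = 0.575). The sign of the change in Slc2a4 therefore differed between the comparisons, and no single one passed.

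Taken per kilobase of exonic sequence, which allows levels of different genes to be compared, Slc2a1 made up 67.3% ± 1.04 (SD, n = 3) of the summed level of Slc2a1, Slc2a3 and Slc2a4 in controls and 65.9% ± 1.44 in LIN9 KO ventricles of experiment 2. The share of Slc2a4 was 20.1% ± 1.28 in controls and 13.7% ± 0.834 in LIN9 KO, while that of Slc2a3 (GLUT3, a high-affinity transporter) was 12.6% ± 1.77 and 20.4% ± 0.804. The summed level of the 3 transporters was 50.4 ± 3.03 CPM per kilobase in controls and 92.0 ± 15.1 in LIN9 KO, and 55.6 ± 1.38 in Sav1 KO against 69.6 ± 15.1 in double knockouts.

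Hk2, the hexokinase typical of insulin-responsive muscle, rose in the same comparisons as Slc2a1. It was at 115, 124 and 137 CPM in controls and at 252, 277 and 188 CPM in LIN9 KO libraries of experiment 2. It was at 134, 116 and 129 CPM in Sav1 KO against 145, 228 and 164 CPM in double knockout libraries. The groups did not overlap in either pair. The log2 fold change after loss of LIN9 was 0.93 ± 0.163 (adjusted p = 0.000739) with wild-type Sav1 and 0.50 ± 0.164 (adjusted p = 0.0393) with Sav1 deleted. The second call was lost when double knockout replicate 2 was left out (0.27, adjusted p = 0.19), and also without LIN9 KO replicate 1 (adjusted p = 0.0583), double knockout replicate 3 (adjusted p = 0.0537) or any Sav1 KO library (adjusted p = 0.0559 to 0.107). With same-numbered libraries as a block in the fit, it was lost as well (0.48, adjusted p = 0.0516). In experiment 1, Hk2 was at 110.2, 136 and 103 CPM in LIN9 wt and at 116, 186 and 216 CPM in LIN9 KO libraries, where LIN9 KO replicate 1 again lay within the range of the controls. The log2 fold change of 0.57 ± 0.219 did not pass (adjusted p = 0.111), but did without LIN9 KO replicate 1 (0.80, adjusted p = 0.00165) and in DESeq2 (adjusted p = 0.0163). It was 0.38 without LIN9 KO replicate 3, and its adjusted p went up to 0.327, without LIN9 KO replicate 2.

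Hk1, the hexokinase of most tissues, did not pass the threshold in any comparison, but in some under other settings. It was at 343, 336 and 326 CPM in controls and 386, 339.8 and 251 CPM in LIN9 KO libraries. It was at 359, 323 and 338 CPM in Sav1 KO and 221, 304 and 298 CPM in double knockout libraries. Its log2 fold change after loss of LIN9 was -0.04 ± 0.133 with wild-type Sav1 and -0.31 ± 0.133 with Sav1 deleted (adjusted p = 0.87 and 0.102), and -0.34 ± 0.131 in experiment 1 (adjusted p = 0.0787), where levels went from 298, 358 and 273 CPM in LIN9 wt to 210.4, 278 and 245 CPM in LIN9 KO libraries. All double knockout libraries lay below all Sav1 KO libraries and below all controls, and the other LIN9 comparisons overlapped. The value of -0.31 passed the threshold when LIN9 KO replicate 3, which was not in the comparison but shared its fit, was left out (adjusted p = 0.0182), and likewise without LIN9 KO replicate 1 (adjusted p = 0.0331). It also passed with no filter on low counts (adjusted p = 0.0174) and in a fit of the 6 libraries compared (adjusted p = 0.0186). It was -0.21 without double knockout replicate 1 (adjusted p = 0.275). That of experiment 1 passed without LIN9 KO replicate 2 (-0.44, adjusted p = 0.0281) and with no filter (adjusted p = 0.0325). It was -0.22 without LIN9 wt replicate 2 (adjusted p = 0.329). With wild-type Sav1, leaving out 1 library moved the value of -0.04 to between -0.20 and 0.09, and it passed under no setting.

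Pfkm encodes the muscle form of phosphofructokinase, which carries the committed step of glycolysis. It fell in experiment 1, from 173, 179.6 and 178 CPM in LIN9 wt to 103, 144 and 125 CPM in LIN9 KO libraries, with a log2 fold change of -0.51 ± 0.119 (adjusted p = 0.00622). With Sav1 deleted it fell by 0.42 ± 0.103 on the log2 scale (adjusted p = 0.00341), from 198, 165 and 183 CPM to 122, 145 and 143 CPM. With wild-type Sav1 in experiment 2, it was at 175, 190 and 177 CPM in controls and at 169, 165 and 146 CPM in LIN9 KO libraries. These groups did not overlap either, but the log2 fold change of -0.18 ± 0.102 did not pass (adjusted p = 0.232). Of the exonic bases of Pfkm, 10.7% lie under other annotated genes, namely Senp1 on the opposite strand and Gm26513 on the same strand, and whether strand was used in counting is not given in the sources used here, so that reads of these genes may not be told apart there.

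Aldoa, the aldolase of muscle and most tissues, was between 844 and 1241 CPM in all 18 libraries. It changed in 1 of the LIN9 comparisons, where it fell from 1203, 1112 and 1163 CPM in Sav1 KO to 844, 937 and 889 CPM in double knockout libraries (log2 fold change -0.38 ± 0.0975, adjusted p = 0.00452). With wild-type Sav1 the log2 fold change was 0.02 ± 0.0973, and in experiment 1 it was -0.03 ± 0.137 (adjusted p = 0.92 and 0.903). Double knockouts were also all below the controls, with a log2 fold change of -0.27 ± 0.0974 that just missed the threshold (adjusted p = 0.0509) and passed under 10 of 21 other settings.

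Pgam2, the muscle form of phosphoglycerate mutase, fell in every LIN9 comparison. It was at 236, 218 and 202 CPM in controls and at 160.1, 146 and 139 CPM in LIN9 KO libraries. It was at 209.7, 218 and 238 CPM in Sav1 KO against 119, 129.96 and 147 CPM in double knockout libraries. The log2 fold change was -0.56 ± 0.102 (adjusted p = 0.000146) with wild-type Sav1 and -0.75 ± 0.103 (adjusted p = 2.99e-06) with Sav1 deleted. In experiment 1 the levels went from 188, 219 and 215 CPM in LIN9 wt to 128, 160.5 and 131 CPM in LIN9 KO libraries (-0.57 ± 0.115, adjusted p = 0.00242). No pair of these groups overlapped.

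Pkm, the pyruvate kinase that closes glycolysis, and Ldha did not pass the threshold in any comparison. Pkm was between 1109.9 and 1559.6 CPM in all 18 libraries, and its log2 fold change after loss of LIN9 was 0.02 ± 0.0943, -0.12 ± 0.0943 and 0.06 ± 0.13 with wild-type Sav1, with Sav1 deleted and in experiment 1. Its splice forms were not told apart by these gene counts, and 15.3% of its exonic bases lie under the overlapping annotation Gm49759. Ldha was between 839 and 1371 CPM, with log2 fold changes of 0.10 ± 0.0981, -0.10 ± 0.0982 and 0.07 ± 0.13 in the same order. Their adjusted p-values in these comparisons lay between 0.409 and 0.926.

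Ldhb, the subunit of the heart form of lactate dehydrogenase, fell in all 3 LIN9 comparisons, by similar amounts. Its level was 351, 326.5 and 326 CPM in controls and 240.2, 211 and 208 CPM in LIN9 KO libraries. It was 340.2, 313 and 333 CPM in Sav1 KO against 223, 219.8 and 234 CPM in double knockout libraries. In experiment 1 it was 314, 344 and 376 CPM in LIN9 wt and 218, 209.5 and 209.6 CPM in LIN9 KO libraries. No groups with and without LIN9 overlapped. The log2 fold change was -0.61 ± 0.0934 (adjusted p = 1.69e-05), -0.54 ± 0.0934 (adjusted p = 7.19e-05) and -0.70 ± 0.108 (adjusted p = 0.000317) with wild-type Sav1, with Sav1 deleted and in experiment 1. The calls of Ldhb and Pgam2 in these 3 comparisons held under every alternative tried, the leaving out of each library included. So did those of Slc2a1 and Hk2 with wild-type Sav1, of Pfkm in experiment 1 and with Sav1 deleted, and of Aldoa with Sav1 deleted.

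Counted by libraries rather than by the test, the groups did not overlap for 5 of 10 members in LIN9 KO against control (35.1% of all genes), 2 of them higher (18.4% of all genes) and 3 lower (16.8%). With Sav1 deleted this held for 7 of 10 (41.1% of all genes), 1 higher (21.9%) and 6 lower (19.2%), and in experiment 1 for 3 of 10 (36.5%), all lower (18.1%) and none higher (18.4%).

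Double knockouts were also compared with the controls, which served the comparison of LIN9 KO as well. Slc2a1 was higher by 0.47 ± 0.128 and Hk2 by 0.51 ± 0.164 on the log2 scale (adjusted p = 0.0104 and 0.039), and Pfkm was lower at -0.41 ± 0.103, Pgam2 at -0.73 ± 0.103 and Ldhb at -0.57 ± 0.0934 (adjusted p = 0.00476, 6.37e-06 and 5.06e-05). These 5 of 10 members stood beside 20.6% of all genes, with 2 higher (10.7% of all genes) and 3 lower (9.96%). The groups did not overlap for 8 of 10 members (37.4% of all genes), 2 higher (19.8%) and 6 lower (17.6%). The call of Slc2a1 was lost without control replicate 2 (0.40, adjusted p = 0.0561) or double knockout replicate 2 (0.28, adjusted p = 0.152). That of Hk2 was lost without double knockout replicate 2 (0.27, adjusted p = 0.2), and without control replicate 1 or 2, LIN9 KO replicate 1, Sav1 KO replicate 3 or double knockout replicate 3 (adjusted p = 0.0511 to 0.133). Hk1, at -0.29 ± 0.133 (adjusted p = 0.139), passed without LIN9 KO replicate 1 or 3 (adjusted p = 0.0439 and 0.025). It also passed with no filter on low counts (adjusted p = 0.0303).

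Because pairs of these genes encode alternative forms for 1 step, their ratio within a library was compared as well, since it does not depend on the scaling of the library. The ratio of Hk1 to Hk2 read counts was 2.64 to 2.70 in LIN9 wt and 1.13 to 1.81 in LIN9 KO libraries of experiment 1. In experiment 2 it was 2.38 to 2.97 in controls and 1.23 to 1.53 in LIN9 KO libraries, and 2.61 to 2.78 in Sav1 KO against 1.34 to 1.82 in double knockout libraries. The ratio of Ldha to Ldhb was 3.10 to 3.43 against 4.99 to 6.54, 2.96 to 3.07 against 4.70 to 5.20, and 3.00 to 3.15 against 3.58 to 4.53 in the same pairs of groups. The ratio of Hk1 to Hk2 was lower and that of Ldha to Ldhb higher without LIN9 in each of the 3 pairs, and no pair overlapped.

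The ratio of Slc2a4 to Slc2a1 was 0.246 to 0.401 in LIN9 wt against 0.146 to 0.154 in LIN9 KO libraries of experiment 1. It was 0.278 to 0.314 in controls against 0.189 to 0.221 in LIN9 KO, and 0.322 to 0.349 in Sav1 KO against 0.177 to 0.215 in double knockout libraries. That of Pgam2 to Pgam1, the form of most tissues, was 0.715 to 0.748 against 0.418 to 0.591, 0.779 to 0.922 against 0.475 to 0.565, and 0.768 to 0.862 against 0.533 to 0.618. Neither ratio overlapped between groups with and without LIN9. Averaged over the 3 pairs of groups, the log2 ratio of LIN9 KO minus LIN9 wt was -0.77 for Slc2a4 to Slc2a1 and -0.88 for Hk1 to Hk2. It was 0.63 for Ldha to Ldhb and -0.60 for Pgam2 to Pgam1. An exact two-sided permutation test of the labels within each pair of groups gave p = 0.00025 for each of the 4 ratios. This is the smallest value that its 8000 arrangements can give, and the Benjamini-Hochberg adjustment over the 4 ratios left it as it was. The ratios are made of the same counts of the same libraries as the tests of single genes. These p-values therefore add no independent support to those tests, and the libraries of a group may be technical repeats. The pseudogene Pgam1-ps2 took reads next to Pgam1, at 95.0 to 168 CPM against 223 to 337 CPM. With both added together, a setting chosen after the data had been seen, the difference was -0.59 (exact permutation p = 0.00025).

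**Figure D3:**
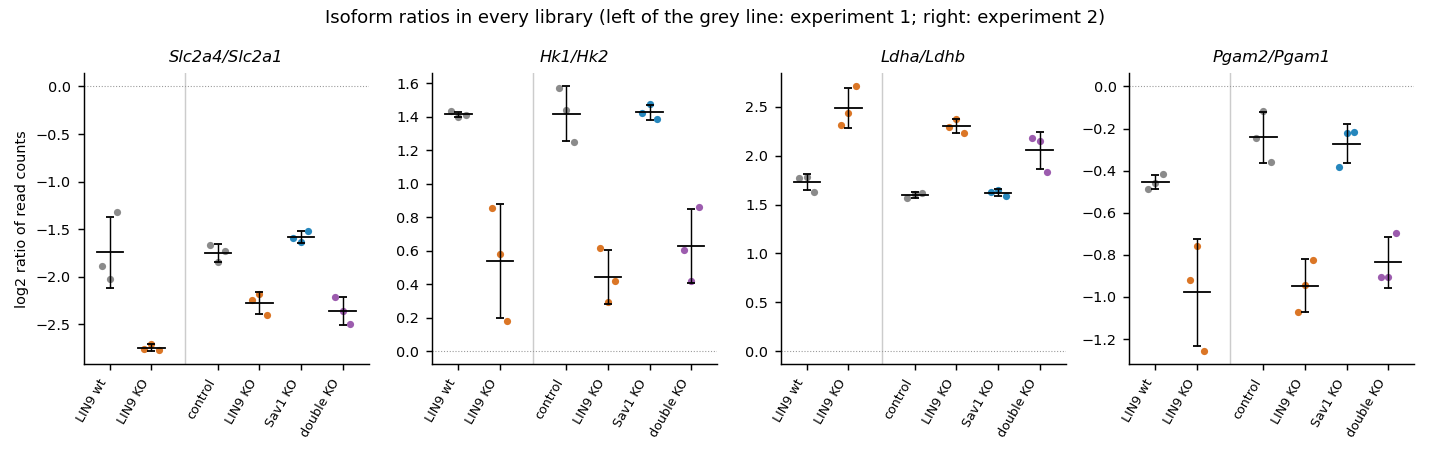
Log2 ratio of read counts between the genes of a step in every library, by genotype. Points are libraries, and bars give the mean and the SD of 3 libraries. Within each experiment, the groups without LIN9 lie below those with LIN9 for Slc2a4/Slc2a1, Hk1/Hk2 and Pgam2/Pgam1, and above them for Ldha/Ldhb.

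Per kilobase, the share of Hk2 in the summed level of both hexokinases was 34.8% ± 2.55 (SD, n = 3) in controls and 51.2% ± 2.79 in LIN9 KO. It was 34.7% ± 0.716 in Sav1 KO and 48.1% ± 3.84 in double knockout ventricles. The size of this share rests on the length used, since with the longest transcript in place of all exonic bases, it was 22.5% in controls and 36.4% in LIN9 KO. The share of Ldhb in both lactate dehydrogenase subunits was 41.1% ± 0.474 in controls, 29.9% ± 1.05 in LIN9 KO, 40.7% ± 0.58 in Sav1 KO and 33.7% ± 2.96 in double knockouts. Pfkm made up 41.3% ± 1.56 of the 3 phosphofructokinases in controls and 35.2% ± 1.41 in LIN9 KO, while the liver form Pfkl made up 37.0% ± 2.14 and 43.9% ± 2.46. With the longest transcript as length, Pfkl came first in controls as well, at 44.8% against 32.5% for Pfkm.

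In the order of levels per kilobase, Aldoa stood first and Ldha second in all 6 groups, and they did not overlap in controls and Sav1 KO ventricles. Pkm, Pgam2 and Ldhb followed, at 279 ± 9.29, 260.2 ± 20.1 and 213 ± 9.28 CPM per kilobase in controls, and the values of Pkm and Pgam2 overlapped there. Pfkm at 54.2 ± 2.47, Hk1 at 39.3 ± 1.02, Slc2a1 at 33.9 ± 2.13, Hk2 at 21.0 ± 1.82 and Slc2a4 at 10.2 ± 1.23 came after them without overlap. In LIN9 KO ventricles of experiment 2, Slc2a1 at 60.5 ± 8.91 CPM per kilobase stood above Pfkm at 47.9 ± 3.73, and Hk2 at 40.0 ± 7.74 next to Hk1 at 38.2 ± 8.0, and each of the first 3 overlapped with the next in the order. With the longest transcript in place of all exonic bases, Pkm stood above Ldha in controls, and Hk1 stood above Pfkm in controls and above Slc2a1 in LIN9 KO.

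After deletion of Sav1, no member passed the threshold. With LIN9 present, the log2 fold changes lay between -0.09 (Pkm) and 0.26 (Slc2a4), and 0 of 10 members passed the threshold, beside 0.017% of all genes (3 genes, 0.0113% higher and 0.00566% lower). With LIN9 deleted, they lay between -0.48 (Slc2a4) and 0.04 (Ldhb), with 0 of 10 past the threshold beside 0.0113% of all genes (2 genes, both lower, and 0% higher). At an unadjusted p below 0.05 there were 0 of 10 members in the first comparison, and 7 of 10 in the second, all lower in double knockout than in LIN9 KO ventricles. Over all 17675 genes tested, 693 and 2093 had such a p. The groups did not overlap for 2 of 10 members with LIN9 present (12.1% of all genes), namely Slc2a1 and Slc2a4, both higher in Sav1 KO (5.97% of all genes higher, 6.14% lower). With LIN9 deleted, they did not overlap for 3 of 10 (15.1%), namely Pfkm, Aldoa and Pkm, all lower in double knockouts (7.2% of all genes higher, 7.88% lower). DESeq2 called 0 of the 10 in either comparison. Without LIN9 KO replicate 3, 378 genes were called, and 4 of the 10 members were among them, all lower in double knockouts: Slc2a1 (-0.49, adjusted p = 0.0305), Slc2a4 (-0.64, adjusted p = 0.0241), Hk2 (-0.57, adjusted p = 0.0271) and Aldoa (-0.37, adjusted p = 0.0488). That library had the lowest level in its group of all 10 members. It also had the most erythroid RNA of its group (37763 CPM of erythroid markers) and the fewest counts of experiment 2 (2770741). The share of all genes for which it was lowest is not given here, so that this count is not shown to be particular to the members.

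Whether the LIN9 effect itself depended on Sav1 was tested as the interaction in experiment 2. It was negative for 9 of 10 members, from -0.13 ± 0.133 (Pkm) to -0.74 ± 0.224 (Slc2a4), and 0.06 ± 0.132 for Ldhb. Of the lists described below, it was negative for 13 of 16 other glycolytic enzymes and 9 of 10 hypoxia-responsive genes. For other glucose transporters it was negative for 2 of 6, and the median over all genes was -0.0009. Neither a member nor any other gene passed the threshold in edgeR or in DESeq2 (0 genes, 0% of those tested). At an unadjusted p below 0.05 there were 3 of 10 members, namely Slc2a1, Slc2a4 and Aldoa, among 1156 genes. The rise of Slc2a1 by 0.84 with wild-type Sav1 and by 0.38 with Sav1 deleted is therefore not shown to differ.

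The genes around the 10 members were described by lists of the same pathway. Among 17 other glycolytic enzymes tested in experiment 1, 3 rose and 1 fell. Of 16 tested in experiment 2, 5 rose and 1 fell with wild-type Sav1 and 2 rose and 3 fell with Sav1 deleted. These 4 of 17, 6 of 16 and 5 of 16 stood beside 20.9%, 23.2% and 23.4% of all genes, and the same 3 shares are the background for the lists that follow. Bpgm, which makes the haemoglobin regulator 2,3-bisphosphoglycerate in red cells, rose in all 3 comparisons (log2 fold changes of 1.75, 1.24 and 1.03), as did Pklr, the pyruvate kinase of liver and red cells, which reached 5.92 CPM at most. Eno3, the muscle enolase, fell in all 3 (-0.36, -0.35 and -0.46). The neuronal-type forms Eno2 and Aldoc rose in experiment 2 with wild-type Sav1 (1.39 and 0.90, adjusted p = 0.00133 and 0.00462). Pfkl rose there as well (0.31) and Hk3 rose in experiment 1 (1.41). The triosephosphate isomerase Tpi1 and Eno1 fell with Sav1 deleted (-0.32 and -0.42). The median log2 fold change of this list was 0.01, 0.27 and -0.08 in experiment 1, with wild-type Sav1 and with Sav1 deleted.

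Of the other glucose transporters, 3 of 7 tested in experiment 1 and 3 of 6 in each comparison of experiment 2 rose. Slc2a3 was at 43.5 to 58.8 CPM in LIN9 wt and at 78.7 to 173 CPM in LIN9 KO libraries of experiment 1. In experiment 2 it was at 40.5 to 49.0 CPM in controls and at 109 to 159.8 CPM in LIN9 KO libraries. The log2 fold changes of Slc2a3 were 1.22 ± 0.3 and 1.58 ± 0.18 (adjusted p = 0.0355 and 1.24e-05), and with Sav1 deleted it rose by 0.89 ± 0.18 (adjusted p = 0.00201). Slc2a13, which carries myo-inositol, rose in all 3 (0.84, 0.57 and 0.94). Slc2a10 rose in experiment 1 and with Sav1 deleted (0.84 and 0.95), and Slc2a8 with wild-type Sav1 in experiment 2 (0.65). Among genes of GLUT4 trafficking and insulin signalling, Irs2 rose (0.55 and 0.76) and Arrdc4 fell (-0.54 and -0.60) in experiment 1 and with wild-type Sav1. Irs1 fell in experiment 1 and with Sav1 deleted (-0.62 and -0.36), and Tbc1d1 rose with wild-type Sav1 (0.37). These were all that passed of 9 genes tested. Of 5 genes that set the level of fructose 2,6-bisphosphate, the activator of phosphofructokinase, or remove it, Pfkfb3 rose in both comparisons of experiment 2 (1.21 ± 0.134 and 0.98 ± 0.139, adjusted p = 1.04e-07 and 5.13e-06). Pfkfb1 rose in experiment 1 and with Sav1 deleted (0.69 and 1.00), and Pfkfb4 with Sav1 deleted (0.81).

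**Figure D4:**
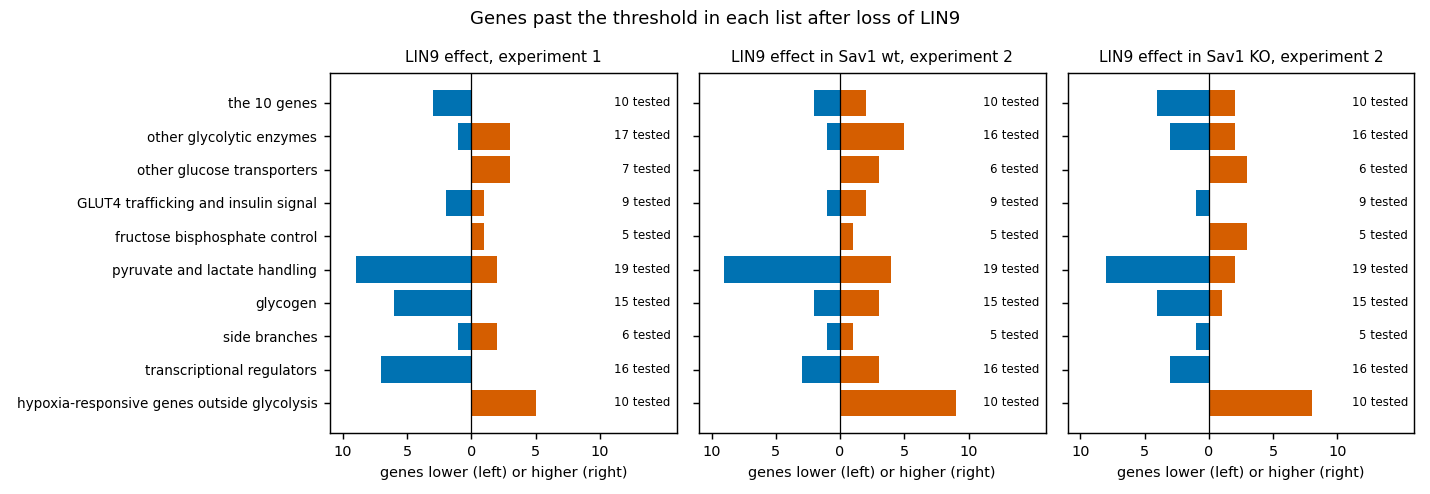
Number of genes in each list that passed an adjusted p of 0.05 in edgeR's quasi-likelihood test after loss of LIN9, higher to the right and lower to the left of 0, with the number tested. The list of pyruvate and lactate handling has 9, 9 and 8 genes lower in the 3 comparisons, and the hypoxia-responsive list has 5, 9 and 8 genes higher and 0 lower.

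More genes of pyruvate and lactate handling fell than rose. Of 19 tested, 9 fell and 2 rose in experiment 1, 9 fell and 4 rose with wild-type Sav1, and 8 fell and 2 rose with Sav1 deleted, with medians of -0.30, -0.19 and -0.34. Pdhb, a subunit of pyruvate dehydrogenase, fell by 0.72 ± 0.109, 0.77 ± 0.109 and 0.64 ± 0.109 on the log2 scale, and Dlat, its acetyltransferase, fell by 0.74, 0.49 and 0.63. Pdk2, a kinase that inhibits the complex, fell by 0.96, 0.50 and 0.95, and its phosphatase Pdp1 fell by 0.39 and 0.77 in experiment 1 and with wild-type Sav1. Pcx, which feeds pyruvate into the citric acid cycle as oxaloacetate, rose by 0.71, 1.36 and 0.91 in the same order.

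Of 15 glycogen genes, 6 fell in experiment 1. With the same genes tested in experiment 2, 2 fell and 3 rose with wild-type Sav1, and 4 fell and 1 rose with Sav1 deleted. Gyg, the primer of glycogen synthesis, fell by 0.86, 0.79 and 0.82 and Pygm, the muscle glycogen phosphorylase, fell by 0.69, 0.49 and 0.40 on the log2 scale. Ppp1r3c, which targets phosphatase to glycogen, rose by 0.96 and 0.91 in experiment 2. Gys1 and Pygl rose with wild-type Sav1 (0.40 and 0.56), and Pygb, the brain form of the phosphorylase, fell in experiment 1 (-0.38) and with Sav1 deleted (-0.42). In the side branches, Gpd1l, which makes glycerol 3-phosphate, fell in all 3 comparisons (-0.90, -0.76 and -0.84). Tkt of the pentose phosphate pathway rose in experiment 1 and with wild-type Sav1 (0.54 and 0.48), and Taldo1 rose in experiment 1 (0.46).

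Among 16 transcriptional regulators of these pathways, 7 fell in experiment 1, 3 fell and 3 rose with wild-type Sav1, and 3 fell with Sav1 deleted. The last count, 3 of 16, was no larger a share than the 23.4% of all genes called there. Ppargc1a, a coactivator of mitochondrial genes, fell in all 3 (-0.78 ± 0.121, -0.65 ± 0.148 and -0.68 ± 0.148), as did Esrra, which binds with it (-0.63, -0.48 and -0.61). Esrrg fell in experiment 1 and with wild-type Sav1 (-0.84 and -0.77), and Mef2d in experiment 1 and with Sav1 deleted (-0.41 and -0.46). Arnt, the partner of the hypoxia-inducible factors, Myc and Egln1 rose with wild-type Sav1 in experiment 2 (0.51, 0.50 and 0.48).

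Genes outside glycolysis that respond to low oxygen moved upward with the same contrast, and their part in the changes of the members was not tested. Of 10 tested, 5 rose in experiment 1, 9 with wild-type Sav1 and 8 with Sav1 deleted, and the median log2 fold change was 0.99, 1.34 and 0.99. P4ha1, a collagen prolyl hydroxylase, was at 83.9 to 119 CPM in LIN9 wt and 261 to 365 CPM in LIN9 KO libraries of experiment 1. It rose by 1.62 ± 0.147, 1.84 ± 0.108 and 1.53 ± 0.108 (adjusted p = 6.87e-06, 7.58e-13 and 3.44e-11). Egln3, an oxygen sensor, rose by 1.70 ± 0.416, 2.00 ± 0.259 and 1.40 ± 0.268 (adjusted p = 0.0469, 0.000328 and 0.00379), and Ndrg1 rose by 2.42 and 1.69 in experiment 2. Summed over the list, levels were 610 to 662 CPM in LIN9 wt and 948 to 1682 CPM in LIN9 KO libraries of experiment 1. In experiment 2 they were 621 to 708 CPM in controls, 1439 to 1977 CPM in LIN9 KO, 633 to 646 CPM in Sav1 KO and 1141 to 1629 CPM in double knockouts.

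**Figure D5:**
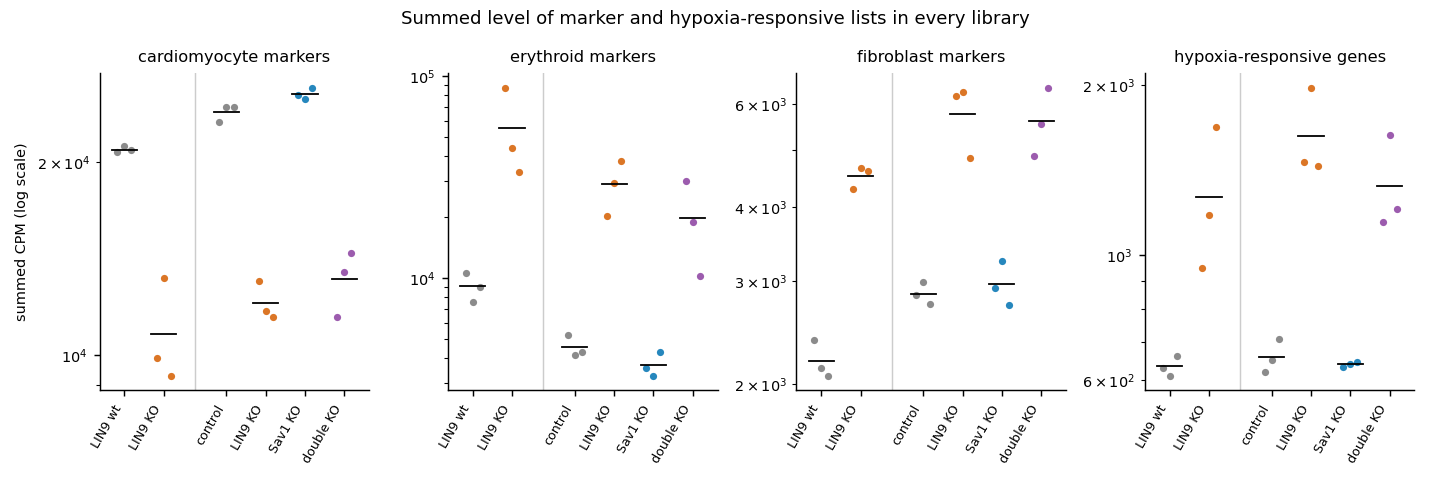
Summed CPM of the cardiomyocyte, erythroid and fibroblast marker lists and of the hypoxia-responsive genes in every library, on a log scale, by genotype. Points are libraries and bars are group means. The cardiomyocyte sum is lower, and the other sums are higher, in every library that lacks LIN9 than in those with LIN9 of the same experiment.

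RNA of cell type markers differed with the same contrast. Of 9 cardiomyocyte markers that define the labelled tissue, 8 were detected, and Actc1 was listed at 0 in all libraries. A gene listed at 0 throughout was not read as unexpressed, since the counting setting for reads of overlapping genes is not given in the sources used here. The summed cardiomyocyte markers were 20715 to 21151 CPM in LIN9 wt and 9285 to 13171 CPM in LIN9 KO libraries of experiment 1. In experiment 2 they were 23044 to 24382 CPM in controls, 11467 to 13033 CPM in LIN9 KO, 25058 to 26093 CPM in Sav1 KO and 11490 to 14450 CPM in double knockouts. Of these 8, 6 passed the threshold as lower in each LIN9 comparison. The summed erythroid markers were 7635 to 10628 CPM and 33306 to 87397 CPM in experiment 1. In experiment 2 they were 4168 to 5207 CPM, 20203 to 37763 CPM, 3268 to 4277 CPM and 10247 to 30035 CPM in the same order. After loss of LIN9, 10, 11 and 11 of 11 tested markers passed as higher, and Alas2 was listed at 0. Fibroblast markers summed to 2068 to 2385 CPM and 4305 to 4676 CPM in experiment 1 and to 2744 to 2984 CPM, 4847 to 6285 CPM, 2726 to 3248 CPM and 4898 to 6393 CPM in experiment 2 (6, 5 and 6 of 6 passed as higher after loss of LIN9). Epicardial markers summed to 279 to 293 CPM and 496 to 561 CPM, and to 253 to 257 CPM, 440.2 to 564 CPM, 213 to 250.4 CPM and 427 to 439 CPM (5, 5 and 5 of 6 passed as higher). Macrophage markers summed to 80.6 to 87.1 CPM and 156 to 180.1 CPM, and to 82.3 to 88.0 CPM, 154 to 182 CPM, 67.5 to 82.2 CPM and 185 to 199 CPM (6, 4 and 5 of 6 passed as higher). Of the endothelial markers, 2, 2 and 3 of 6 passed as higher and 0, 1 and 1 as lower. Of the smooth muscle markers, 1, 1 and 1 of 4 passed as higher and 0, 1 and 1 as lower. The part of these cell types in the changes of the members was not tested.

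Within the groups that lack LIN9, the library with the most erythroid RNA had the lowest level of most members, Slc2a1 and Hk2 included. These were LIN9 KO replicate 1 of experiment 1 (87397 CPM of erythroid markers), LIN9 KO replicate 3 of experiment 2 (37763 CPM) and double knockout replicate 1 (30035 CPM). They were the lowest of their group for 9, 10 and 7 of the 10 members. The share of all genes for which they were lowest is not given here, so that these counts are not shown to be particular to the members.

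The genes whose profile over the 12 libraries of experiment 2 was most like that of each member were found by Pearson's r of log2 CPM, as a description. All profiles share the same 12 libraries and the LIN9 contrast. For Slc2a1 these were Sik1 and Irf2bp2 (r = 0.98 for both), and for Hk2 they were Nicn1 and the member Slc2a1 (r = 0.97 for both). For Ldhb they were Mdh2, the mitochondrial malate dehydrogenase, and Homer2 (r = 0.99 for both). For Pgam2 they were Ncapd2 and Aldh1b1 (r = 0.98 for both). Aldoa was most like the enolase Eno1 (r = 0.97) and Gm14760 (r = 0.96), and Ldha most like the phosphoglycerate kinase Pgk1 (r = 0.97) and its retrocopy Pgk1-rs7 (r = 0.96), 2 genes whose counts may share reads. For Hk1 they were Scd2 (r = 0.97) and Gm1840 (r = 0.95), and for Pfkm Bcl7a and Zcchc3 (r = 0.95 for both). The likeness was weakest for Pkm, with Cited4 and Zfp30 (r = 0.89 for both), and for Slc2a4, with Aurkb and Hif3a (r = 0.88 for both).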

How the data were processed

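Whole-number read counts per Ensembl gene, deposited by the authors for 18 ventricle libraries, were used. Per the study's methods, the authors mapped reads with TopHat2 (2.1.0) and Bowtie2 to mm10 and brought samples to the smallest number of mappable reads. They counted genes of GRCm38.p6 with the function summarizeOverlaps. Strand and overlap settings are not given in the sources used here. Totals were 9485599 to 9615274 counts per library in experiment 1 and 2770741 to 2999877 in experiment 2, and 4 repeated identifiers per table were kept once. The tables of fold changes, p-values and normalized values that the authors computed for their own comparisons were not used. From the count tables, 0 columns of per-sample values were left out. ChIP-seq data of 4 further samples were not used here.

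Genes with a mean count above 1 entered a robust quasi-likelihood fit of edgeR (4.0.16, in R 4.3.3) with TMM scaling, all 12 libraries of experiment 2 in 1 fit, with Benjamini-Hochberg adjustment over all genes and a threshold of 0.05. The procedure was tested on simulated data. Standard errors of edgeR's log2 fold changes were derived from the test, as the absolute log2 fold change divided by the square root of the F statistic. Log2 CPM had a prior count of 2, and ratios of counts a pseudocount of 0.5. Exonic length came from the union of annotated exons. The members and lists were chosen with earlier results of these data known. Named genes are the 10 members, Lin9, Sav1, Pgam1 and, per list, the 3 (experiment 2, wild-type Sav1) and 2 (experiment 1) largest called changes at a mean of 5 CPM or more, plus the 2 most similar profiles per member. Hk3, Pklr, Pfkl, Tpi1, Eno1, Pfkfb4, Gys1, Pygb, Taldo1, Esrra, Mef2d, Myc and Egln1 were named after their values had been seen, to complete a count, and 1 gene of the lists is not reported here. Same-numbered libraries deviated together from their group means in controls and LIN9 KO of experiment 2 (r = 0.216 to 0.599 over 13177 genes with a mean count of at least 10, but 0.0891 to 0.393 over all genes tested), and no other pair of groups had every r above 0.1. Other settings tried were RLE and upper quartile normalization, DESeq2 (1.42.0), other count filters, a non-robust fit, the haemoglobin genes left out, a replicate block, each library left out and, in experiment 2, only the 6 libraries compared.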

Additional observations from a re-analysis of the deposited data

How the results depend on the processing

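Experiment 2 was counted less deeply than experiment 1 (at most 2999877 against at least 9485599 counts per library). Leaving out 1 library at a time gave 2722 (without LIN9 wt replicate 3) to 4223 genes called and 3 to 5 members called in experiment 1, where the non-robust fit, DESeq2 and the replicate block each called 5 members in place of 3. The block added Hk1 (-0.34, adjusted p = 0.00788) and Slc2a4 (-0.36, adjusted p = 0.0412), and the other two added Slc2a1 and Hk2. With the replicate block as a pairing term, the genes called were 5001 in place of 4131 in experiment 1 and 84 in place of 2 for Sav1 with LIN9 deleted, Hk2 was lost with Sav1 deleted (adjusted p = 0.0516), and no call of a member changed with wild-type Sav1. For Sav1 with LIN9 present, 22 genes were called with no filter on low counts, 1 in the non-robust fit, 31 on the 6 libraries compared and 0 to 7 with a library left out. For Sav1 with LIN9 deleted, these were 309, 0, 0 and 0 to 378, beside 4 under upper quartile normalization, 0 at a mean count of at least 10 and 11 in DESeq2, with 1 member called without the filter and 0 to 4 with a library left out. The interaction had 17 genes without the filter and 0 to 64 with a library left out, the most without LIN9 KO replicate 3 of experiment 2. Counting each member under each setting, 127 of 140 calls were as reported for LIN9 in experiment 1, with 13 gained. With wild-type Sav1 these were 209 of 210 with 1 gained, and with Sav1 deleted 186 of 210 with 14 lost and 10 gained. A call counted as unchanged here whatever the sign of its fold change. The sign differed from the reported one in 4, 19 and 0 results in the same order. These were results of Aldoa, Pkm and Ldha in experiment 1 and of Hk1, Aldoa and Pkm with wild-type Sav1, none of them called. With a library left out, the log2 difference was -0.81 to -0.70 for Slc2a4 to Slc2a1, -0.94 to -0.82 for Hk1 to Hk2, 0.60 to 0.67 for Ldha to Ldhb and -0.63 to -0.55 for Pgam2 to Pgam1. The exact test over same-numbered pairs (pairing) gave p = 0.00391 for each, the smallest it can give, which says nothing of their stability. Of 72 shares per kilobase, 49 moved by more than their SD with the longest transcript as length. The causes were not tested.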
